A study of Mus musculus with 2 samples.

Results

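Among the cells of subcutaneous SO ovarian tumors, a group was defined by RNA of Hmga2, Nav3, Grik2 and Bnc2 with almost no RNA of Lgals7 and Krt18, the genes that marked most cancer cells in these tumors. A cell was a member if it held at least 5 unique molecular identifiers (UMIs, each standing for 1 captured RNA molecule) of Hmga2, Nav3, Grik2 and Bnc2 together, under 3 of Lgals7 plus Krt18, none of the immune genes Ptprc and Csf1r, under 3 of the fibroblast genes Dcn, Lum and Pdgfra, and under 3 of the endothelial genes Pecam1, Cdh5 and Cldn5. In all, 101 of 4403 kept cells were members, 92 in the library from TSK mice and 9 in the library from WT mice. The levels of these 14 genes chose the members and are given as descriptions.

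SO is a mouse ovarian cancer line without p53 that carries activated H-Ras and Myc, and it was injected under the skin of both flanks of female C57BL/6 mice aged 6 to 8 weeks (1000000 cells). WT mice carried normal Fbn1, and TSK (tight skin) mice carried an internal tandem duplication in Fbn1, the gene of the microfibril protein fibrillin-1, so that both groups received the same cancer line and differed in the host. Tumors of several mice were pooled by genotype, enzymatically dissociated, depleted of red and dead cells, and sequenced as 1 library per genotype with 10x Genomics 3′ chemistry. Cells could not be assigned to single mice, so genotype, pool and library cannot be told apart, and no test between genotypes was possible. Intervals are exact, at the 95% level, and cover counting error only.

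Hmga2 encodes a chromatin protein of embryonic tissue that is re-expressed in many carcinomas, and its RNA is a target of let-7 microRNAs. Nav3 encodes a microtubule-binding navigator protein, Grik2 a kainate-type glutamate receptor subunit, and Bnc2 a zinc finger protein of mesenchymal and epithelial tissue. Mid1, proposed as a further marker but not part of the rule, encodes a microtubule-associated ubiquitin ligase. Lgals7 encodes galectin-7 and Krt18 a keratin of simple epithelia. In the GRCm38 assembly with GENCODE M21 genes, Hmga2 lies on chromosome 10 from 120361275 to 120476469 on the minus strand, Nav3 on chromosome 10 from 109681259 to 110456204 on the minus strand, Grik2 on chromosome 10 from 49094833 to 49788766 on the minus strand, Bnc2 on chromosome 4 from 84275095 to 84675275 on the minus strand, and Mid1 on chromosome X from 169685199 to 170005736 on the plus strand. All 5 are long genes, spanning 115 kb (Hmga2), 775 kb (Nav3), 694 kb (Grik2), 400.2 kb (Bnc2) and 321 kb (Mid1), whereas Lgals7 spans 2.43 kb and Krt18 3.85 kb.

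The libraries held 21225411 UMIs in 2332 barcodes (WT) and 48296765 UMIs in 4436 barcodes (TSK). Cells with at least 200 genes, at least 500 UMIs and at most 10% mitochondrial UMIs were kept, leaving out 263 barcodes found in both libraries, which gave 1442 WT and 2961 TSK cells. Of the barcodes left out as shared, 2 WT barcodes and 1 TSK barcode met the rule. Doublets were not called and were left in.

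Members made up 3.11% of kept cells in TSK (interval 2.51 to 3.80) and 0.624% in WT (0.286 to 1.18), a log2 ratio of 2.32 (1.33 to 3.49). Set against the Lgals7 Krt18 cells of the same library, the shares lay close and their intervals overlapped. Lgals7 Krt18 cells, the comparison group throughout, met the same limits on immune, fibroblast and endothelial genes but held at least 3 UMIs of Lgals7 plus Krt18. There were 488 Lgals7 Krt18 cells in TSK and 50 in WT, of which 336 and 26 held 5 or more UMIs of the 4 genes. Members were thus 15.9% of members and Lgals7 Krt18 cells together in TSK (92 of 580, interval 13.0 to 19.1) and 15.3% in WT (9 of 59, 7.22 to 27.0). The WT cells were, however, a different mixture. Only 3 of 9 WT members held a Hmga2 UMI, against 85 of 92 in TSK, and 1 of 9 held a UMI of Cdkn2a, against 71 of 92. Cdkn2a encodes the p16 and ARF tumor suppressors and was among the cancer markers that the rule did not use.

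The 9 WT members were examined one by one. WT member 9, with 33767 UMIs, held 47 UMIs of Hmga2, 91 of Nav3, 17 of Grik2, 43 of Bnc2, 112 of Mid1 and 12 of Cdkn2a, and none of Col1a1, the main fibrillar collagen gene. Of the 9 WT members it was the only one with Cdkn2a. In TSK, 49 of 92 members held all 4 genes, 37 of these also Mid1 and Cdkn2a, and 31 of these no Col1a1. WT member 8, with 31462 UMIs, held 110 UMIs of Nav3 but 4 of Hmga2 and 2 of Mid1, together with 264 of Col1a1 and no Cdkn2a. The other 7 held 2116 to 9450 UMIs and 6 to 11 UMIs of the 4 genes, and in 4 WT members all of these came from a single gene. With 9 cells, all further values are given for the TSK library.

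The rule cut through a continuum. Of 2961 kept TSK cells, 1103 held 5 or more UMIs of the 4 genes, and 286 of these held under 3 UMIs of Lgals7 plus Krt18. The limits on immune, fibroblast and endothelial genes reduced them to 259, then 119 and then 92. Just inside the limit on Lgals7 plus Krt18 were 19 members with 2 UMIs, and just outside were 18 cells with 3 or 4. Just inside the limit on the 4 genes were 11 members with 5 or 6 UMIs, and just outside were 14 cells with 3 or 4. Among the members themselves, 45 held no Lgals7 or Krt18 UMI and 28 held 1.

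The 4 genes did not contribute equally. Of 92 TSK members, 49 held UMIs of all 4 genes, 34 of 3, 8 of 2 and 1 of a single gene. Hmga2 was the most counted gene in 33 members, Nav3 in 27, Bnc2 in 22 and Grik2 in 10, and Grik2 was not detected in 37. UMIs per cell ranged up to 63 for Hmga2 (median 5), 31 for Nav3 (median 4), 44 for Bnc2 (median 5) and 29 for Grik2 (median 1). Mid1 was the most abundant of the 5 genes, with a median of 29 UMIs per member and at most 239, and it was detected in 95.7% of them.

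In counts per 1000000 UMIs summed over cells (CPM), Hmga2 reached 556 in members (interval 518 to 595), 433 in Lgals7 Krt18 cells, 115 in fibroblast-gated cells and 12.1 in T-gated cells (256 cells with at least 2 UMIs of Cd3d, Cd3e and Cd3g), which served as a background for free RNA. Bnc2 reached 455 in members, 148 in Lgals7 Krt18 cells and 350.5 in fibroblast-gated cells. Nav3 reached 427, 190 and 284 in the same order. Grik2 reached 254 in members, 135 in Lgals7 Krt18 cells and 76.6 in fibroblast-gated cells. Mid1, which the rule did not use, stood at 2981 in members, 1242.5 in Lgals7 Krt18 cells, 686 in fibroblast-gated cells and 69.4 in T-gated cells. Hmga2 and Grik2 were thus more restricted to members and Lgals7 Krt18 cells, while Nav3 and Bnc2 were also carried by fibroblast-gated cells, which held at least 5 UMIs of Dcn, Lum and Pdgfra together (211 cells in TSK).

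Checked against markers, the members only partly fitted the label of tumor cells. Of 5 cancer markers, 4 (Lgals7, Krt18, Krt8 and Epcam) were lower by 2-fold or more than in Lgals7 Krt18 cells, of which Lgals7 and Krt18 were fixed by the rule, and Cdkn2a stood at a log2 ratio of -0.37 (-0.49 to -0.26). After each cell was thinned to 2000 UMIs, Lgals7 was seen in 6.67% of members (interval 2.49 to 13.9) and in 7.08% of T-gated cells, both capped by their definitions. Unthinned, the shares were 45.7% and 11.7% at median depths of 10295 and 3167 UMIs. Cdkn2a behaved differently. It was seen in 40% of thinned members (29.8 to 50.9), in 65.0% of Lgals7 Krt18 cells, in 11.0% of fibroblast-gated cells and in 9.73% of T-gated cells, and its unthinned shares were 77.2%, 94.1%, 25.1% and 12.1%. Myc, 1 of the transgenes of the line, stood at 338 CPM against 167 in Lgals7 Krt18 cells, and Hras was 0.35 lower on the log2 scale. Whether the counts of Myc and Hras came from the transgenes or the mouse genes was not tested. Markers of T and NK cells were nearly absent (2 UMIs over 9 genes, with Cd3d, Cd3e, Cd3g and Trac at 0), keratinocyte markers were at 0 except for 5 UMIs of Krt10, and in the endothelial list Kdr and Emcn were at 0, as were Cdh5 and Cldn5, which the rule capped. The endothelial list summed to 63.1 CPM against 83.6, and Pecam1, also capped, was higher (1.10, 0.37 to 1.77). Mitf of the melanocyte list (1.67, 1.36 to 1.96) and Kit of the mast cell list (1.26, 0.85 to 1.65) were higher, while Tyr, Dct, Cpa3 and Tpsb2 were at 0. These values are over all members, and Mitf, Kit and Cdkn2a are given below for a part of them. The Schwann cell list was higher in sum by 0.69 (0.52 to 0.86), of which Ncam1 held 324 of 341 UMIs, with Sox10 at 0. In the macrophage list C1qa and Arg1 were higher, on 18 and 25 UMIs, and Apoe lower, with a lower sum in members (84.5 against 139 CPM) and Csf1r at 0 by the rule. The richest member for each gene held 8 of the C1qa and 11 of the Arg1 UMIs. Without it the log2 ratios were 1.19 (0.03 to 2.22) and 1.38 (0.41 to 2.26). Of 6 tested genes in a longer list of SO cancer cell genes, Myc was higher and Krt8, Krt19 and Epcam were lower. The members are therefore called by their genes here.

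The members differed widely from one another in how their RNA was composed. RNA of genes spanning over 100 kb, leaving out the rule's genes, Mid1 and Malat1, made up a median of 23.3% of UMIs in members (range 4.89 to 38.9) and 7.74% in Lgals7 Krt18 cells. Ribosomal protein RNA made up a median of 4.78% (0.740 to 33.9) against 25.3%. Mitochondrial RNA made up 5.68% against 2.60%, and 53 of 92 members lay above 5%. Members were also shallower, with a median of 10295 UMIs and 3458.5 genes against 23672 UMIs and 4745 genes. Among cells of at most 10000 UMIs, the median long-gene share was 5.93% in Lgals7 Krt18 cells and 25.7% in members. This does not isolate depth, as only members had to hold 5 UMIs of the 4 long genes. The median count of these genes was 1 and 14 in those cells, and 29.5 and 25 in cells over 25000 UMIs. In the 17 members over 25000 UMIs the median was 8.75%, with 25.7% of UMIs in ribosomal protein genes and 2.92% in mitochondrial genes, so that the deepest members lay close to Lgals7 Krt18 cells. Over the 92 members, the Spearman correlation of the long-gene share with the ribosomal share was -0.89, with the mitochondrial share 0.50 and with depth -0.46. These shares come from the same cells and sum to a fixed total, and the correlations are descriptions. A fixed minimum of UMIs weighs more on shallow cells, and its part in the correlation with depth was not tested. In the 488 Lgals7 Krt18 cells the long-gene share rose with depth (0.36).

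**Figure D1:**
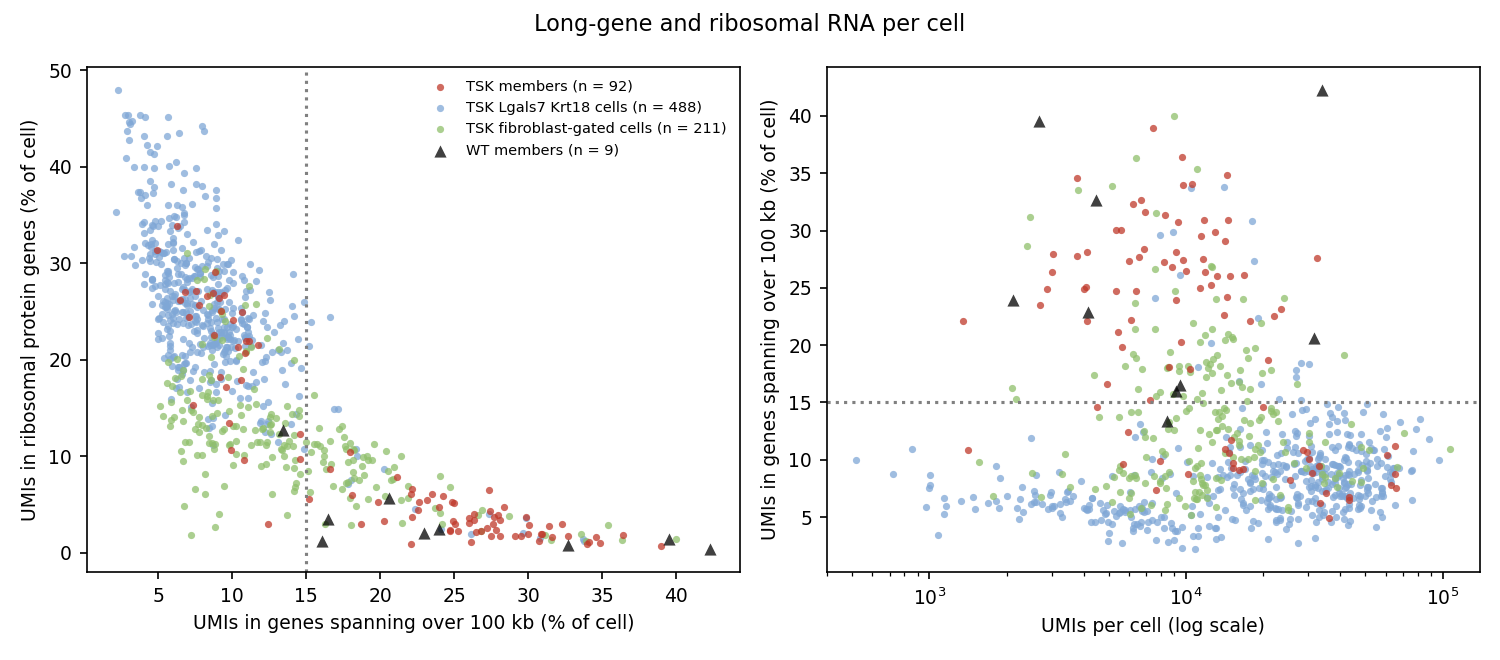
Share of each cell's UMIs in genes spanning over 100 kb against the share in ribosomal protein genes (left), and against UMIs per cell on a log scale (right). Each point is 1 cell, for TSK members (red), TSK Lgals7 Krt18 cells (blue), TSK fibroblast-gated cells (green) and WT members (black triangles), and the dotted line marks 15%. Of 92 TSK members, 61 lay at or above the line, against 19 of 488 Lgals7 Krt18 cells.

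The members fell into a long-gene-rich and a long-gene-poor part, and a limit of 15%, chosen after the values were seen, was used to describe them. At or above the limit were 61 members (66.3%, interval 55.7 to 75.8), against 3.89% of Lgals7 Krt18 cells (2.36 to 6.01) and 33.6% of fibroblast-gated cells (27.3 to 40.5). The 61 long-gene-rich members had medians of 8820 UMIs, 7.43% mitochondrial and 3.02% ribosomal protein UMIs. The 31 long-gene-poor members had medians of 25403 UMIs, 3.07% mitochondrial and 22.6% ribosomal protein UMIs. Cdkn2a was detected in 30 of the 31 long-gene-poor members and in 41 of the 61 long-gene-rich ones. Between members and Lgals7 Krt18 cells that were both under the limit, the log2 ratio was 0.09 (-0.04 to 0.21) for Cdkn2a. For Mitf it was -0.17 (-0.90 to 0.48) and for Kit 0.38 (-0.32 to 1.01), on 20 and 22 UMIs. Between cells at or above the limit Cdkn2a stood at -0.49 (-0.90 to -0.09). Around the limit, 12 members had 10 to 15% and 6 had 15 to 20%. Of the 9 WT members, 8 were long-gene-rich.

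The 4 genes of the rule followed this split in both classes of cells. Hmga2 stood at 1020 CPM in long-gene-rich members and at 241 in long-gene-poor ones. In Lgals7 Krt18 cells, it stood at 1514 in the 19 long-gene-rich cells and at 403 in the 469 long-gene-poor ones. Within each part, Hmga2 was lower in members, by a log2 ratio of -0.57 (interval -0.74 to -0.40) among rich cells and -0.74 (-0.95 to -0.54) among poor ones. Nav3 differed by 0.03 (-0.20 to 0.26) and 0.33 (0.11 to 0.55), and Grik2 by -0.06 (-0.34 to 0.22) and -0.44 (-0.79 to -0.12). Bnc2 remained higher in members, by 0.59 (0.34 to 0.85) and 0.70 (0.48 to 0.92). Mid1, outside the rule, was higher by 0.98 (0.87 to 1.09) among rich cells and 0.30 (0.22 to 0.39) among poor ones. The split did not make the classes equal, as the median long-gene share was 26.5% in rich members and 20.2% in rich Lgals7 Krt18 cells, and 9.42% and 7.54% in poor ones. All of these genes but Mid1 were used to choose the members, so their values are a description.

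**Figure D2:**
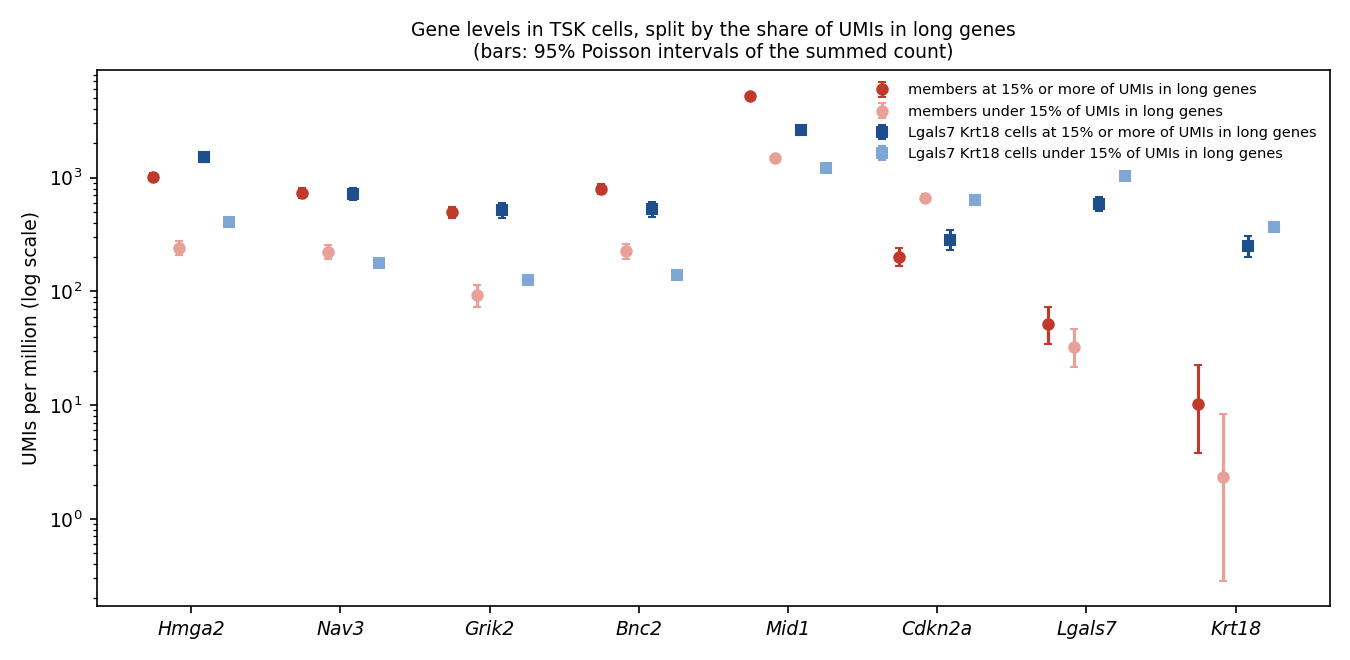
CPM (log scale) of 8 genes in TSK members (circles) and TSK Lgals7 Krt18 cells (squares), split at 15% of UMIs in genes spanning over 100 kb; bars are 95% Poisson intervals of the summed counts. Hmga2, Nav3, Grik2 and Bnc2 are higher in the long-gene-rich cells of both classes, Cdkn2a is higher in the long-gene-poor cells, and Lgals7 and Krt18 are low in both kinds of members by the rule.

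The genes that set the members apart from Lgals7 Krt18 cells were then taken over the whole transcriptome. Of 10429 genes with at least 50 UMIs over both groups, 1350 (12.9%) were at least 2-fold higher in members and 459 (4.4%) at least 2-fold lower, by the ratio itself, whatever its interval. The median gene was 0.24 higher on the log2 scale. Centred on that median, 643 genes were higher and 820 lower, so the balance of directions depended on the scaling. The counts depended as strongly on the RNA composition of the cells: with both groups under 15% of UMIs in long genes, 313 were higher and 754 lower, and with a mitochondrial limit of 5%, 429 were higher and 555 lower. Against only the 336 Lgals7 Krt18 cells with 5 or more UMIs of the 4 genes, 10.5% of 10297 genes were higher and 4.43% lower.

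The difference followed the genomic span of the genes. Leaving out the rule's genes and Mid1, the median log2 ratio was -0.32 for 2365 genes of up to 10 kb, 0.06 for 3373 genes of 10 to 30 kb, 0.51 for 3205 genes of 30 to 100 kb, 0.81 for 1206 genes of 100 to 300 kb and 0.99 for 268 longer genes. At least 2-fold higher in members were 3.93% of the shortest and 47.8% of the longest genes. The rule summed 4 genes that are themselves over 100 kb, and the Lgals7 Krt18 cells had no such minimum. The part of the rule in this gradient was not tested.

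**Figure D3:**
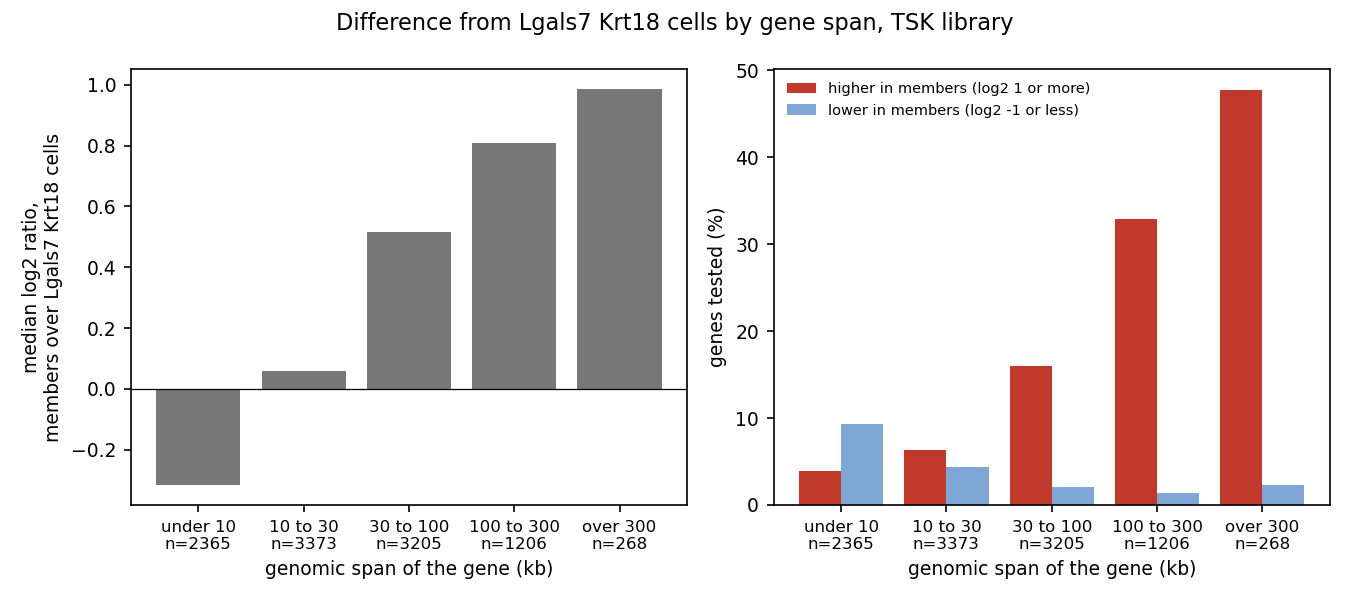
Left, median log2 ratio of members over Lgals7 Krt18 cells (TSK library) in 5 classes of genomic span in kb, with the number of genes under each bar; right, the percent of genes at least 2-fold higher (red) or lower (blue) in members. The median rises from -0.32 in the shortest to 0.99 in the longest genes.

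By the distance of their counting interval from 0, among genes detected in at least 20% of the cells of the higher group, the 15 genes furthest above Lgals7 Krt18 cells were Ebf1, Col1a1, Col1a2, Mgat4a, Zdhhc14, Gm26917, Gria3, Adgrl3, Itga9, Lama4, Tnc, Naaladl2, Hs6st2, Itgb8 and Rmrp. Ebf1, a transcription factor of B cells and mesenchymal progenitors, stood at 71.4 CPM against 3.30, a log2 ratio of 4.44 (3.91 to 4.99), and was found in 20.7% of members; it reached 693 in fibroblast-gated cells. Gria3, an AMPA-type glutamate receptor subunit, stood at 70.7 against 11.0 (log2 ratio 2.69, 2.30 to 3.06). Adgrl3, an adhesion receptor of the latrophilin family, stood at 163 against 28.2 (2.53, 2.28 to 2.77). Itga9 and Itgb8, integrin subunits, were higher by 2.78 (2.25 to 3.30) and 2.48 (2.03 to 2.92). Gm26917, a non-coding RNA of 3.33 kb, reached 727 against 133 (2.45, 2.34 to 2.56), and Rmrp, the RNA of RNase MRP, was higher by 2.57 (2.03 to 3.10), so that short genes were also among those raised over all members. Within the long-gene-poor cells Rmrp stood at 0.66 (-0.71 to 1.78) on 7 UMIs. Gm26917 stood there at 1.07 (0.86 to 1.27), and at 0.49 (0.24 to 0.73) without 1 member that held 77 of its 230 UMIs. Itga9 was higher also within the long-gene-poor cells (2.39, 1.66 to 3.07), on 25 UMIs in 5 cells, whereas Adgrl3 was not (-0.44, -1.30 to 0.30). Ebf1 rested there on 1 cell: 32 of its 38 UMIs in long-gene-poor members lay in a single member, and without it the log2 ratio was 1.12 (-0.41 to 2.36). Over all members, leaving out the richest cell changed the log2 ratio of Ebf1 from 4.44 to 3.94.

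The 15 genes furthest below were Krt18 and Lgals7, fixed by the rule, and S100a11, Mgp, Ifitm1, Nrn1, S100a6, Cst6, Chchd10, Idh1, Atp1b1, Psmb8, Tinagl1, Apoe and Sh3bgrl3. S100a6, a calcium-binding protein, fell from 1457 CPM in Lgals7 Krt18 cells to 308 in members (log2 ratio -2.24, -2.38 to -2.11). Mgp, matrix Gla protein, stood at 461 and 79.0 (-2.55, -2.83 to -2.28), and Ifitm1, an interferon-induced membrane protein, at 353 and 65.8 (-2.42, -2.73 to -2.13). Nrn1, encoding neuritin, stood at 51.9 and 6.24 (-3.06, -4.19 to -2.12), and Cst6, a cystatin of epithelia, at 41.6 and 4.85 (-3.10, -4.42 to -2.05). All 15 of these genes span under 30 kb. The lower level was not confined to cells rich in long-gene RNA: S100a6 was lower by -2.01 (-2.18 to -1.85) among long-gene-poor cells and by -1.74 (-2.06 to -1.43) among long-gene-rich ones. Spp1, the gene of osteopontin, was likewise lower, at 1014 against 2946 CPM over all cells, by -1.48 (-1.58 to -1.39) among poor cells and by -2.28 (-2.42 to -2.14) among rich ones.

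**Figure D4:**
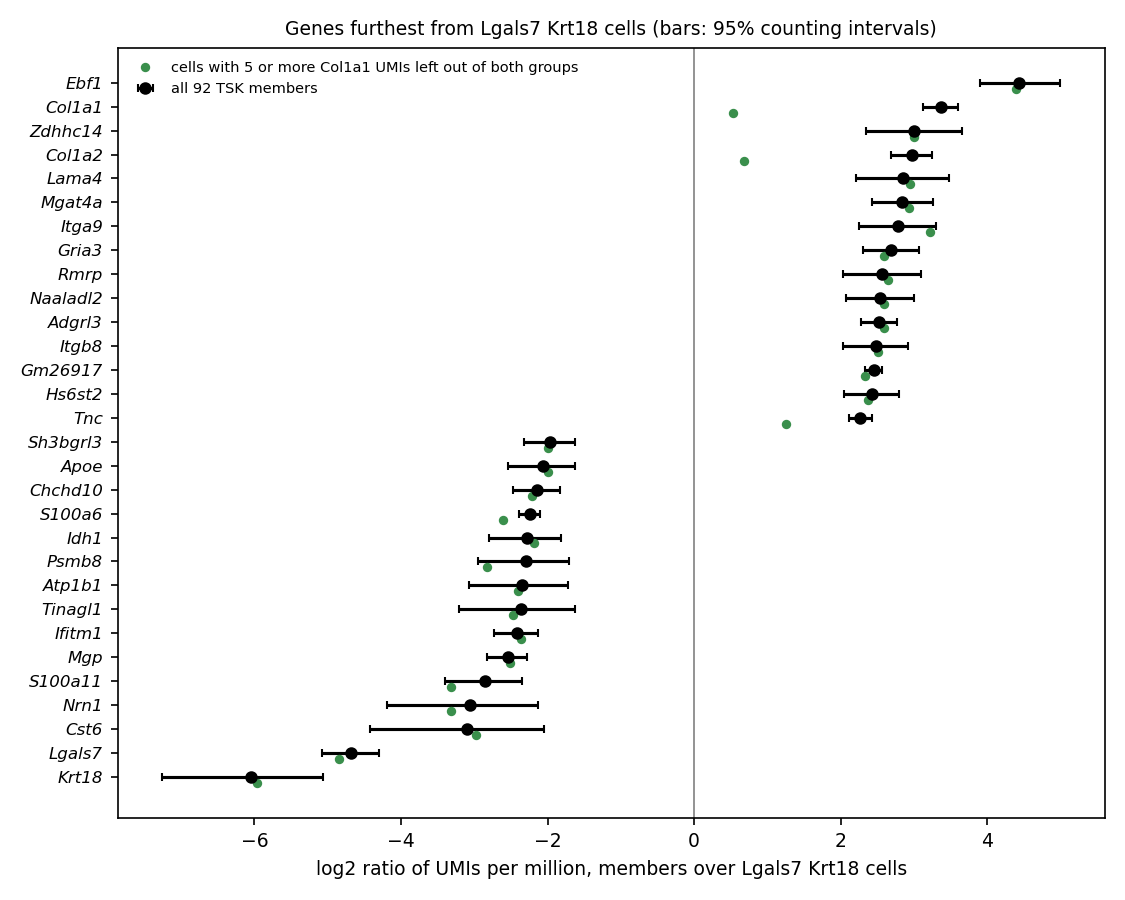
Log2 ratio of CPM, TSK members over TSK Lgals7 Krt18 cells, for the 15 genes furthest above and the 15 furthest below 0, with 95% counting intervals (black), and the same with cells of 5 or more Col1a1 UMIs left out of both groups (green, no interval). Col1a1, on which cells were then left out, moves from 3.36 to 0.53, Col1a2 from 2.97 to 0.67 and Tnc from 2.27 to 1.25.

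The collagen UMIs lay in few members. Col1a1 was at 0 in 72 of 92 TSK members, at 1 to 4 UMIs in 11 and at 5 or more in 9. Of these 9, 5 lacked Hmga2 and 7 lacked Grik2, and 7 held Cdkn2a. Of 14 genes tested from a list of fibrillar collagens and matrix proteins, 11 were at least 2-fold higher and none lower over all members (list median 1.58, all genes 0.24). Over all tested genes, 12.9% were called higher and 4.4% lower. With the 9 cells left out of the members alone, 1 of the 14 was higher and 5 were lower, a trimming that itself lowers Col1a1. With cells of 5 or more Col1a1 UMIs left out of both groups (9 members and 9 Lgals7 Krt18 cells), the summed level of the list changed from a log2 ratio of 1.17 (1.11 to 1.23) to 0.35. Fbn1, the gene altered in TSK hosts, stood at 116 CPM in members, 37.7 in Lgals7 Krt18 cells and 1348 in fibroblast-gated cells, and its log2 ratio of 1.62 (1.36 to 1.88) became 1.06 in that comparison. The fibroblast marker list moved with it. Its 10 genes summed to 840 CPM in members, 228 in Lgals7 Krt18 cells and 26041 in fibroblast-gated cells, 6 of 9 tested were higher in members although the rule capped Dcn, Lum and Pdgfra, and Clec3b was at 0. With the 9 cells left out of the members alone, 2 of these 9 genes were higher and 3 lower. Of the 20 nearest cells in expression, 21.7% were fibroblast-gated for these 9 members and 5.78% for the other 83. What kind of cell the 9 members were was not tested.

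Genes of contact with the matrix were higher in sum. Of 12 integrin genes tested, 5 were at least 2-fold higher (Itga5, Itga8, Itga9, Itgav and Itgb8) and 1 was lower (Itga3), with a list median of 0.78. Of all tested genes 12.9% were higher by that limit and 4.4% lower, and of genes spanning 100 to 300 kb 32.9% were higher. The sum stood at 1136 CPM against 672, a log2 ratio of 0.76 (0.68 to 0.83), and 0.71 with Col1a1-bearing cells left out of both groups. Of 13 basement membrane genes, 5 were higher, among them Lama4, Lamc1, Nid2 and Agrn, and none lower, and the sum was higher by 0.72 (0.66 to 0.79). Among long-gene-poor cells these sums differed by -0.21 (-0.35 to -0.08) for integrins and -0.01 (-0.12 to 0.09) for basement membrane. Among long-gene-rich cells they differed by 0.34 (0.19 to 0.49) and 0.16 (0.03 to 0.28), so that most of the difference in these sums moved with the share of long-gene RNA, whose part was not tested.

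Few genes of synaptic signalling besides Grik2 could be compared. Of 4 tested genes among 20 glutamate receptor and synaptic adhesion genes, Gria3, Dlg2 (1.99, 1.57 to 2.39) and Dlgap1 (1.20, 0.95 to 1.44) were higher, both of the latter encoding postsynaptic scaffold proteins, and Grik1 stood at 0.10. Of all genes spanning 100 to 300 kb, 32.9% were called higher, and of longer genes 47.8%, and the 4 tested genes are of these sizes. Dlg2 had 28 of its 75 UMIs in 1 member and stood at 1.32 (0.82 to 1.80) without it, and Dlgap1 stood at 0.99 without its richest member. The sum was 283 CPM against 101, and it was higher within poor cells (0.60, 0.33 to 0.86) and within rich cells (1.86, 1.40 to 2.36). Within poor cells it rested on 130 UMIs of members, 31 of them Dlgap1 UMIs in 1 member. Without that member Dlgap1 stood there at 0.09 (-0.38 to 0.53). Dlg2 stood there at 0.11 (-0.88 to 0.95) and Gria3 at 1.09 (0.33 to 1.77). Neuron markers were not raised: Snap25 was lower (-2.04, -3.18 to -1.09), and Rbfox3, Syt1, Stmn2 and Elavl4 were at 0. Of 11 navigator and guidance genes, Slit2, Slit3 and Robo1 were higher and Sema3d lower, with Slit3 and Robo1 seen in 10.9% and 4.35% of members. Over all tested genes, 12.9% were called higher and 4.4% lower. Robo1 had 25 of its 37 UMIs in 1 member, and without that member its log2 ratio went from 4.26 to 2.68 (1.49 to 3.84). Nav1 and Nav2, the relatives of Nav3, differed by 0.17 and 0.56. The sum of this list was higher over all members (0.32, 0.23 to 0.41) but lower within poor cells (-0.85, -1.02 to -0.68) and within rich cells (-0.91, -1.04 to -0.78).

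Among growth genes of embryonic and fetal tissue, Igf2bp1 was higher (26.3 against 4.86 CPM, log2 ratio 2.44, 1.81 to 3.04), as were Lin28b (1.43, 0.74 to 2.08), which encodes a repressor of let-7 microRNAs, and Igf2bp3 (1.34, 1.08 to 1.59). Igf2bp1, Igf2bp2 and Igf2bp3 encode RNA-binding proteins, and Igf2bp2 stood at 0.88. Hmga1, the relative of Hmga2, was lower (-1.72, -2.32 to -1.17), as was Dlk1 (-1.22, -1.46 to -0.99). In all, 3 of 9 tested genes of this list were higher and 2 lower, with a list median of 0.85, and the sum, at 941 against 828 CPM, differed by 0.18. The shares over all tested genes were 12.9% higher and 4.4% lower. Igf2bp1 stood at 1.48 (0.45 to 2.39) among long-gene-poor cells, on 12 UMIs. Of these, 4 lay in 1 member, and without that member it stood at 1.01 (-0.27 to 2.07).

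Genes of antigen presentation were lower. Of 12 genes of MHC class I presentation, 6 were at least 2-fold lower and none higher (list median -1.05), namely B2m, H2-D1, H2-T23, H2-Q7, Psmb8 and Psmb9. Over all tested genes, 4.4% were lower by that limit and 12.9% higher. Among genes spanning up to 10 kb, such as Psmb8 (3734 bases), 9.30% were lower and 3.93% higher, with a median of -0.32. B2m, the light chain of all class I molecules, stood at 241 CPM in members, 605 in Lgals7 Krt18 cells and 2112 in T-gated cells (log2 ratio -1.33, -1.49 to -1.17). The summed list stood at 506 against 1163 (-1.20, -1.31 to -1.09), and it was lower both among long-gene-poor cells (-1.30, -1.44 to -1.15) and among long-gene-rich ones (-1.06, -1.27 to -0.84). With Col1a1-bearing cells left out of both groups the log2 ratio was -1.67. Of 15 interferon-stimulated genes, Stat2 and Rsad2 were higher and Gbp2, Igtp and Ifit3 lower, Ifit3 on 4 UMIs with an interval of -2.96 to 0.37. The list median was -0.39 and the sum differed by 0.13 (-0.03 to 0.29). Rsad2 had 54 of its 69 UMIs in 1 member, and without that member its log2 ratio went from 1.71 to -0.48 (-1.35 to 0.28).

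Glycolysis and hypoxia genes were lower in sum, at 4679 against 7822 CPM (-0.74, -0.78 to -0.71), with 4 of 18 at least 2-fold lower (Aldoa, Gapdh, Bnip3 and Adm) and none higher. Over all tested genes, 4.4% were lower by that limit and 12.9% higher. Gapdh stood at 955 CPM in long-gene-poor members and at 117 in long-gene-rich ones. Against Lgals7 Krt18 cells it differed by -0.60 (-0.71 to -0.50) within poor cells and -2.63 (-3.04 to -2.24) within rich cells. Over all members, each of 20 ribosomal protein genes was lower, by -0.46 to -0.87, with none past 2-fold. In sum they stood at 66569 CPM in long-gene-poor members and at 8357 in long-gene-rich ones. Against Lgals7 Krt18 cells this sum differed by -0.10 (-0.11 to -0.09) within poor cells and by -1.77 (-1.82 to -1.72), past 2-fold, within rich cells. RNAs held in the nucleus ran the other way, with 4 of 7 higher (Malat1, Xist, Meg3 and Gm26917), although all 59 Meg3 UMIs lay in the Col1a1-bearing members. Malat1, an abundant nuclear non-coding RNA, stood at 15021 CPM against 7421, and Xist at 1431 against 596. The nuclear list rose from 11128 CPM in long-gene-poor members to 30635 in long-gene-rich ones. Over all members it summed to 19015.5 CPM, against 9511 in Lgals7 Krt18 cells, 17008 in fibroblast-gated and 17089 in T-gated cells. The ribosomal list summed to 43032 CPM in members, and to 70207, 41159 and 32872 in the same order. Over all members, these sums thus set members apart from Lgals7 Krt18 cells more than from the other 2 groups.

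The sum of the G2 and M phase genes differed from Lgals7 Krt18 cells by 0.19 (0.14 to 0.25) over all members, by 0.41 (0.35 to 0.47) within poor cells and by 0.57 (0.39 to 0.74) within rich cells. The S phase sum differed by -0.01 (-0.07 to 0.06), 0.03 (-0.06 to 0.11) and 0.27 (0.09 to 0.46). Of 20 genes of the G2 and M phases none passed 2-fold, and of 18 S phase genes Dtl was higher. Mki67, a marker of cycling cells, stood at 281 CPM, was 0.80 higher on the log2 scale (0.60 within poor cells and 1.25 within rich cells), and was seen in 25.6% of thinned members (16.9 to 35.8) against 19.4% of Lgals7 Krt18 cells and 9.29% of T-gated cells; its unthinned shares were 59.8%, 54.3% and 12.1%. Over all tested genes, 12.9% were at least 2-fold higher and 4.4% lower. The call of 1 gene in the S phase list and in the next 2 lists lies near or below what these shares give. Of 11 p53 target genes 1 was lower, Cdkn1a (-1.45, -2.04 to -0.91). Of 15 RAS-MAPK feedback and target genes 1 was lower, Areg (-1.30, -1.66 to -0.96), which encodes the EGF receptor ligand amphiregulin. Of 14 mesenchymal program genes 2 were higher, Tnc among them, and Zeb1 and Zeb2 stood at 0.90 and 0.77, while Vim was at -0.72. The sum of the mesenchymal list likewise turned from 0.19 over all members to -0.24 (-0.30 to -0.18) within poor cells and -0.16 (-0.24 to -0.08) within rich ones. Of 16 TGF-beta and BMP pathway genes 2 were higher, Tgfbr1 and Ccn2, and Ccn2 was seen in 7.61% of members. The shares of higher genes in these 2 lists lie near the 12.9% of all tested genes. None of 14 immediate early and heat shock genes passed 2-fold. Among 7 tested genes of the ovarian surface, Gata6 was lower (-1.47, -2.62 to -0.52) and Wt1 stood at -0.95. Of 5 tested epithelial junction genes Epcam and Pkp1 were lower, where 4.4% of all tested genes were.

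**Figure D5:**
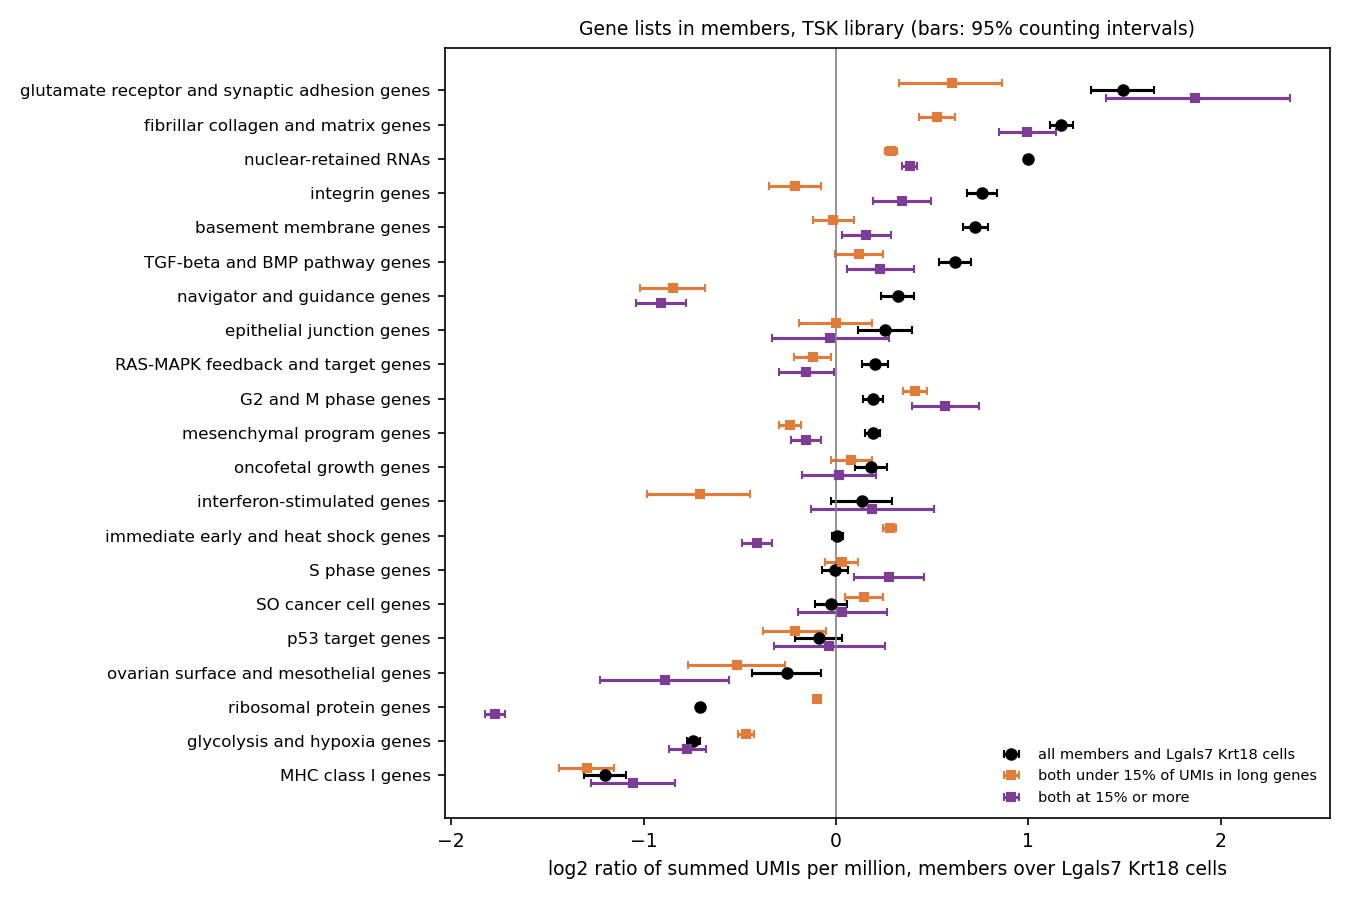
Log2 ratio of the summed CPM of 21 gene lists, TSK members over TSK Lgals7 Krt18 cells (black), and the same between cells under 15% (orange) and at or above 15% (purple) of UMIs in genes spanning over 100 kb; bars are 95% counting intervals. MHC class I genes are lower in all 3 comparisons (-1.20, -1.30 and -1.06), and integrin genes are higher over all members (0.76) but not among long-gene-poor cells (-0.21).

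Genes outside the rule also placed members near each other, in 30 principal components computed without the rule's genes and Mid1. Of the 20 nearest cells of a TSK member, 32.1% ± 21.6 (SD over 92 cells) were members, which made up 2.29% of all cells, and 17.3% were Lgals7 Krt18 cells. The 2 parts of the members differed here too. For the 61 long-gene-rich members, 45.7% ± 11.5 of the nearest cells were members and 6.48% were Lgals7 Krt18 cells. For the 31 long-gene-poor members, 5.32% ± 6.05 were members and 38.5% ± 21.3 were Lgals7 Krt18 cells, near the 47.8% ± 18.0 found for Lgals7 Krt18 cells themselves. Thinning every cell to 2000 UMIs gave 46.8% and 5.83% members. Long-gene-poor members thus lay mostly among Lgals7 Krt18 cells and other cells, and long-gene-rich members lay near each other. The RNA composition given above is itself part of the expression that these distances use.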

How the data were processed

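Raw UMI counts per gene and cell were used as the authors deposited them, made with Cell Ranger (7.1.0 per the file headers, 7.1.1 in the submitters' processing notes) on mm10. Whether intronic reads were counted is not given in the sources used here. Cells with at least 200 genes, at least 500 UMIs and at most 10% mitochondrial UMIs were kept. No upper limit on depth was set, barcodes found in both libraries were left out, and no doublet caller was run.

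Members and gene lists were chosen with earlier results of these data known. Counts were summed over the cells of a group and divided by the group's total, and genes with at least 50 UMIs over both groups were compared. Log2 ratios carry exact conditional intervals, shares Clopper-Pearson intervals and levels Poisson intervals, all at 95%. With 1 library per genotype no p-value was computed, and cells were not used as replicates. The text names the rule's genes and Mid1, the 15 genes furthest above and below 0 by the nearer interval bound, seen in at least 20% of cells of the higher group, and genes of 21 lists. Genomic spans came from GENCODE M21 (32235 of 32285 identifiers matched). Neighbours were the 20 nearest cells in 30 principal components of 2000 variable genes. The ratio and its interval were tested on data simulated with counting error alone. That check did not cover counts clustered in single cells. Alternatives covered the limits of the rule, depth, mitochondrial share, weights, scaling and filters, and 6 were added after the data were seen. Computations used scipy 1.17.1 with numpy 2.4.6 and pandas 2.3.3 under Python 3.11.15, and plots matplotlib 3.10.9. Values of some single genes of the lists are not reported here.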

Additional observations from a re-analysis of the deposited data

How the results depend on the processing

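No paired analysis was possible because each genotype had 1 library. The log2 ratio of the member share, TSK over WT, ranged from 1.33 among cells with Ptprc at 0 to 3.34 without Nav3, and the first of these lay just outside the counting interval of the reported value. The TSK share became 4.68% with a mitochondrial limit of 20%, 1.47% with 5%, 2.47% with 10 or more UMIs of the 4 genes, 4.12% with the rule scaled to depth, 1.52% with Lgals7 plus Krt18 at 0, 5.17% with it under 10, and 4.56% among cells with Ptprc at 0. The WT share became 0.277% without Nav3 and 1.82% among cells with Ptprc at 0. The number of genes higher in members than in Lgals7 Krt18 cells was 808 with the rule scaled to depth, 615 with Lgals7 plus Krt18 under 10, 3090 with equal weight for each cell, 643 centred on the median gene, 3023 with a minimum of 1 UMI, 2537 without cells over 25000 UMIs, 313 and 292 with both groups under and at or above 15% of UMIs in long genes, and 429 with a mitochondrial limit of 5%. The number of genes lower in members than in Lgals7 Krt18 cells was 1017 with Lgals7 plus Krt18 at 0, 285 with it under 10, 1182 with equal weight, 820 centred, 696 with a minimum of 1 UMI, 1031 without cells over 25000 UMIs and 754 with both groups under 15%. Lists whose sums differed by 2-fold or more numbered 3 and became 13 with at most 10000 UMIs, 5 with a mitochondrial limit of 20%, 10 in the middle UMI range, with equal weight and with thinning, 9 without cells over 25000 UMIs, and 1 with Lgals7 plus Krt18 under 10, with both groups under 15% and with a mitochondrial limit of 5%. Named genes that differed by 2-fold or more and changed sign were Epcam (0.20 with at most 10000 UMIs), Col1a1 (-1.29) and Col1a2 (-0.14) with Col1a1-bearing cells left out of the members alone, which the trimming on that gene fixes, and Adgrl3 (-0.44 with both groups under 15%). Some smaller differences that changed sign within the long-gene parts are given beside Hmga2, Grik2 and the integrin, guidance and mesenchymal lists. Others did so too, among them the RAS-MAPK sum, from 0.20 (0.14 to 0.27) to -0.12 (-0.22 to -0.02) within poor cells and -0.15 (-0.29 to -0.01) within rich cells. The interferon-stimulated sum went from 0.13 to -0.71 (-0.98 to -0.45) within poor cells. The immediate early and heat shock sum went from 0.01 to -0.41 (-0.49 to -0.33) within rich cells. Cdkn2a stood at 0.09 (-0.04 to 0.21) within poor cells. The cause of these changes was not tested, except that the filters change which genes and cells were compared. With 9 WT members, gene levels in WT were not compared.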
